A study of Mus musculus with 14 samples.

Results

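Respiratory chain subunits are the nuclear-encoded proteins of the 4 electron transport complexes and of ATP synthase in the inner mitochondrial membrane. They were chosen by gene symbol alone (Ndufa, Ndufb, Ndufc, Ndufs or Ndufv followed by a digit, Uqcr, Cox4i, Cox5, Cox6, Cox7, Cox8, Atp5, the 4 Sdh subunits and Cyc1), with no measured value used except to take the brightest probe of each gene. Earlier results of these data were known when these genes were chosen. The arrays carried 85 such genes of 20022 genes with a symbol. Of these, 81 were well above background on all 14 arrays and were tested, among 11497 tested genes with a symbol. The other 4, the tissue-restricted complex IV paralogues Cox7b2, Cox8b, Cox8c and Ndufa4l2, were not well above background on any array. The 81 genes encode 35 subunits of complex I, 4 of complex II, 9 of complex III, 16 of complex IV and 17 of complex V. None of the 13 subunits encoded by mitochondrial DNA was matched to a probe, so only the nuclear part of the chain is described.

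The study compared blood RNA of mice exposed to a hostile or adverse social setting during the third week of life (SS, 8 mice) and mice isolated in that week (SI, 6 mice). All mice then went through place conditioning with a low cocaine dose (5 mg/kg), extinction and withdrawal, and blood was drawn 24 hours later, so every group carried both stress and cocaine; the labels give no strain or age. One-colour arrays were run on 2 slides, the first with 4 SS and 4 SI mice labelled male and the second with 4 SS and 2 SI mice labelled female, so slide and sex label cannot be told apart. The labels call the samples peripheral blood mononuclear cells but name red cell lysis as their only purification step.

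Several facts of the whole series bear on the values. The Y-linked genes Eif2s3y and Ddx3y were well above background on 0 of 8 arrays labelled male and on 6 of 6 labelled female, against the sex labels, so groups are named here by slide. Of the cell type markers on the array, 14 of 15 for T cells and 12 of 12 for B cells were bright enough to test. So were 10 of 11 for NK cells and 11 of 11 for monocytes. The same held for 18 of 18 for platelets, 15 of 16 for neutrophils and 11 of 13 for erythroid cells. All 18 platelet markers were higher in SS mice over both slides (median log2 difference 1.58, limma adjusted p under 0.05 for each, against 7.41% of all probes called higher). All 15 tested neutrophil markers lay below 0 on the second slide, 9 of them called lower there by limma (against 0.816% of all probes). On the first slide 9 of these 15 lay above 0 (median 0.24), and 4 were called in the difference between slides (against 0.0458%). All 10 tested NK cell markers also lay below 0 on the second slide, with 0 called. The array of SI mouse 4 on the first slide stood apart, with Pearson correlations of 0.833 to 0.896 with the other SI arrays of its slide, which correlated at 0.969 to 0.972 among themselves. SS mouse 3 of the same slide also lay apart, at 0.927 to 0.939 with the other SS arrays of the slide. Those correlated at 0.977 to 0.983 among themselves. Without SS mouse 3 limma called 0 subunits on the first slide, and their median difference there was -0.20. Counts and medians on the first slide are given with and without SI mouse 4. In bulk RNA, fewer cells of a type and less RNA per cell cannot be told apart.

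Complex I (NADH dehydrogenase) and complex II (succinate dehydrogenase) pass electrons from fuel oxidation to ubiquinone. Complex III passes them on to cytochrome c and complex IV (cytochrome c oxidase) to oxygen, and complex V makes ATP from the resulting proton gradient. In blood, mature red cells have no mitochondria, while platelets keep working mitochondria and neutrophils hold few and rely largely on glycolysis. Many nuclear genes of the chain are known targets of the transcription factors NRF1, GABP (an ETS family factor) and YY1.

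The start-site regions of the 3 subunits called higher over both slides are shown. Cox5a and Ndufa4 held none of the 3 motifs searched, while Ndufs4 held 1 only after its start. Holding none was common: any of the 3 was found for 3 of 14 complex IV genes and 15 of 31 of complex I. A relation of motifs to the differences between groups was not tested. Each line gives the 250 bases before the start from the RefSeq promoter table (build GRCm38.p6), 5′ to 3′ on the gene's strand. Cox6a1, the brightest complex IV subunit on these arrays, is shown for contrast, and it was the only 1 of the 14 with NRF1 letters. Capitals mark letters of the NRF1 motif (GCGCA, any base, GCGC) or the ETS motif (CCGGAAG) on either strand.
Ndufs4, chr13:114388095-114388344, minus strand: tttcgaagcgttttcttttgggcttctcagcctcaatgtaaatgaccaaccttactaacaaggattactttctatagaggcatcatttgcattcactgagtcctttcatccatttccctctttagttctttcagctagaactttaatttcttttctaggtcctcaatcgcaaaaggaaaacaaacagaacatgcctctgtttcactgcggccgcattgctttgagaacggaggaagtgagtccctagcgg
Cox5a, chr9:57520982-57521231, plus strand: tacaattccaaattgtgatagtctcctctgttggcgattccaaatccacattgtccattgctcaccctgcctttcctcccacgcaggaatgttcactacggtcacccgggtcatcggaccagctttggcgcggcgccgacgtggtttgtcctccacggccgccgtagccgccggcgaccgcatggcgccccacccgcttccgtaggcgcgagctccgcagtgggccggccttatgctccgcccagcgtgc
Ndufa4, chr6:11907451-11907700, minus strand: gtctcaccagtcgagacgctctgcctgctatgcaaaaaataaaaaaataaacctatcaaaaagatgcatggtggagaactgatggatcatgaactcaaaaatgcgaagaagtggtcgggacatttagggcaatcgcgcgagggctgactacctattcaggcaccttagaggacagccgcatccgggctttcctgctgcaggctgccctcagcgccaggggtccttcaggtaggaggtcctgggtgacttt
Cox6a1, chr5:115348959-115349208, minus strand: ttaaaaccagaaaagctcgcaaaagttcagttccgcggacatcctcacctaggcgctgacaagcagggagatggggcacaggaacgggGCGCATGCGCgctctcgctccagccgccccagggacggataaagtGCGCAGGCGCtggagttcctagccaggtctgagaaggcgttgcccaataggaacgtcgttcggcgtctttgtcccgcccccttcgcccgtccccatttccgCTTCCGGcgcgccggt
Ndufs4, YY1 letters after the start, chr13:114388048-114388062, minus strand: aggAAGATGGCGgcg

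The table held a promoter for 68 of the 85 genes. Over the 300 bases from 250 before to 50 after the start, on both strands, NRF1 letters were found for 17 of the 68 genes (25%, against 5.19% of 27025 genes in the table) and ETS letters for 17 (25%, against 9.93%). YY1 letters (AAGATGGCG) were found for 7 (10.3%, against 1.64%). At least 1 of the 3 was found for 35 genes (51.5%, against 15.1%), and matches of different motifs did not overlap in any of the 68. By complex, any of the 3 motifs was found for 15 of 31 genes of complex I (48.4%), 3 of 3 of complex II, 3 of 5 of complex III, 3 of 14 of complex IV (21.4%) and 11 of 15 of complex V (73.3%). These are matches of letters and a description of the windows, with no test.

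Levels are given on the log2 scale relative to a fixed point on each array, the 75th percentile of probes well above background on all arrays, so that 0 is that brightness. Differences are SS minus SI on the log2 scale with their standard error (SE). A gene is called where its limma p stayed under 0.05 after Benjamini-Hochberg adjustment across the 24033 probes tested. Levels of different genes are not compared, since probes differ in their response.

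With the slide as a term in the fit, 3 of the 81 subunits were called over both slides, all higher in SS mice: Ndufs4, Cox5a and Ndufa4. None was called lower. That is 3.70% of the subunits, against 7.98% of all tested probes called in either direction, 7.41% called higher and 0.570% called lower, so the share of subunits called was below the background. At an unadjusted p under 0.05 the fit over both slides held 9 subunits (11.1%, against 20.3% of all probes). On the first slide alone limma called 0 subunits (background 0% of probes), with 4 at an unadjusted p under 0.05 (4.94%, against 23.7%). The second slide had 1 call, Ndufa4, which was higher (background 4.00%, with 3.19% of probes called higher and 0.816% lower), again with 4 at an unadjusted p under 0.05 (against 15.8%).

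Most subunits lay slightly lower in SS mice. The median difference over the 81 genes was -0.14 on the first slide, -0.09 on the second and -0.13 over both, with 58, 53 and 59 of 81 genes below 0. Leaving out SI mouse 4 moved it to -0.25 on the first slide and -0.18 over both, and leaving out SI mouse 7 moved the first slide median to -0.07. Without SI mouse 27 the median was 0.08 on the second slide and -0.07 over both, and without SI mouse 28 it was -0.20 on the second. Over all tested genes with a symbol the medians were -0.15, -0.07 and -0.14, close to those of the subunits. Over all tested probes, which also include probes without a symbol, they were 0.09, -0.11 and -0.04. Complex IV was the exception in sign: its median was 0.13 on the first slide and 0.09 on the second, with 11 and 12 of 16 genes above 0. The medians of complexes I, II, III and V were -0.20, -0.25, -0.22 and -0.15 on the first slide and -0.12, -0.17, -0.14 and -0.07 on the second. The first slide medians of complexes I to V were -0.34, -0.40, -0.27, 0.24 and -0.10 without SI mouse 4. Scaling to the 75th percentile of all non-control probes moved the median of the 81 genes to -0.31 on the first slide and to 0.07 on the second, so the direction of the small overall shift on the second slide depended on the scale. On that scale the complex IV median was -0.05 on the first slide, and on the second slide those of complexes I, III and V were 0.04, 0.02 and 0.10. The complex IV median lay above those of the other 4 complexes on each slide under this scale, the other 3 scalings and corrections tried and the deposited table.

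**Figure D1:**
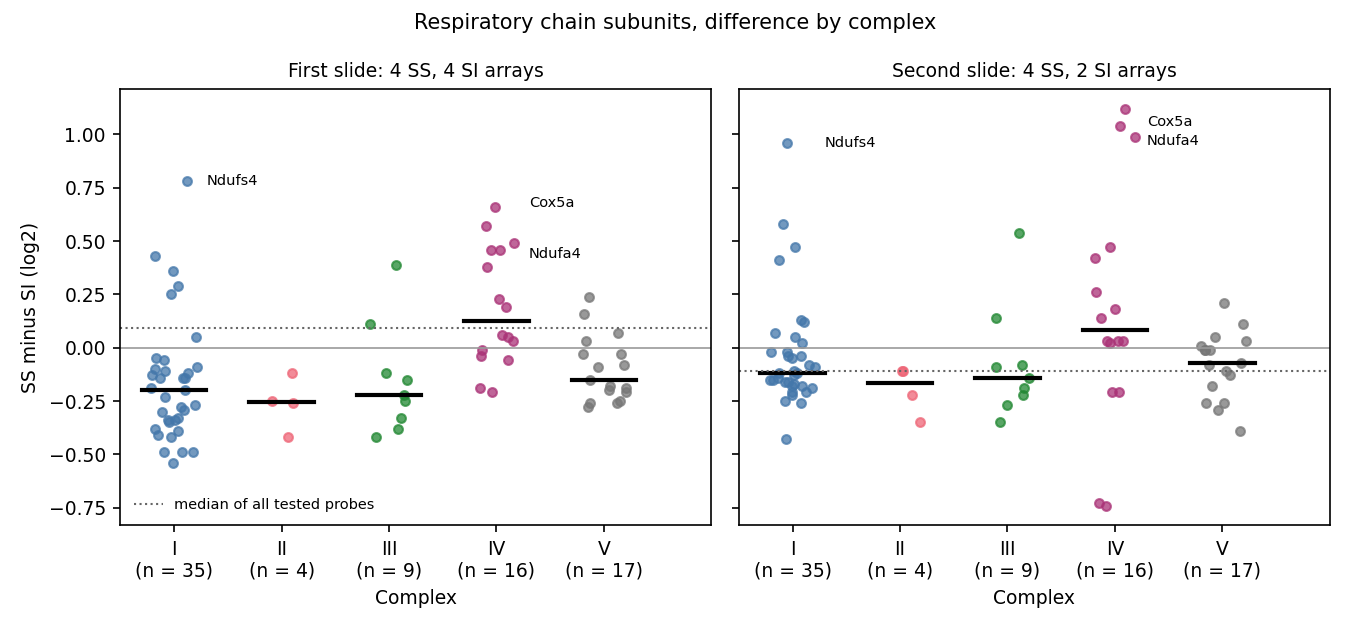
SS minus SI (log2) of each of the 81 subunits by complex, on the first slide (left) and the second (right); points are genes, black bars the median of the complex, and the dotted line the median of all tested probes (0.09 and -0.11). Most complex I points lie below 0, the complex IV median lies above it on both slides (0.13 and 0.09), and Ndufs4 lies apart from the rest of complex I.

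In complex I, Ndufs4 was the only one of 35 subunits called over both slides. Ndufs4 is an accessory subunit of the electron input arm, needed for a stable and fully active complex, and its loss in mice and humans causes a Leigh-like encephalopathy. On the first slide its level was 0.54, 0.59, 0.08 and 0.89 in SI mice 4, 5, 6 and 7. It was 1.70, 1.37, 1.12 and 1.04 in SS mice 1, 2, 3 and 01b. On the second slide it was 0.70 and 0.29 in SI mice 27 and 28 and 1.41, 1.42, 1.35 and 1.66 in SS mice 20, 21, 22 and 23. Every SS level lay above every SI level of its slide. The difference was 0.78 (SE 0.22, limma adjusted p = 0.085) on the first slide, 0.96 (SE 0.27, limma adjusted p = 0.0684) on the second and 0.85 (SE 0.17, limma adjusted p = 0.00575) over both, a 1.81-fold higher signal in SS mice.

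Ndufs4 was also higher in SS mice relative to its own complex within each array, a comparison that does not depend on how arrays were scaled. The median of a complex can fall on different probes on different arrays. The Ndufs4 level minus the median of the other 34 complex I subunits averaged 0.15 ± 0.56 (SD, n = 4) in SI and 1.31 ± 0.47 (SD, n = 4) in SS mice on the first slide. The second slide gave -0.16 ± 0.13 (SD, n = 2) in SI and 0.84 ± 0.14 (SD, n = 4) in SS mice. SS and SI values did not overlap on either slide, with lowest SS values of 0.76 and 0.66 against highest SI values of 0.73 and -0.06. On the same measure Ndufa1 was also higher in SS mice, by 0.78 and 0.53, with overlap on the first slide only.

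**Figure D2:**
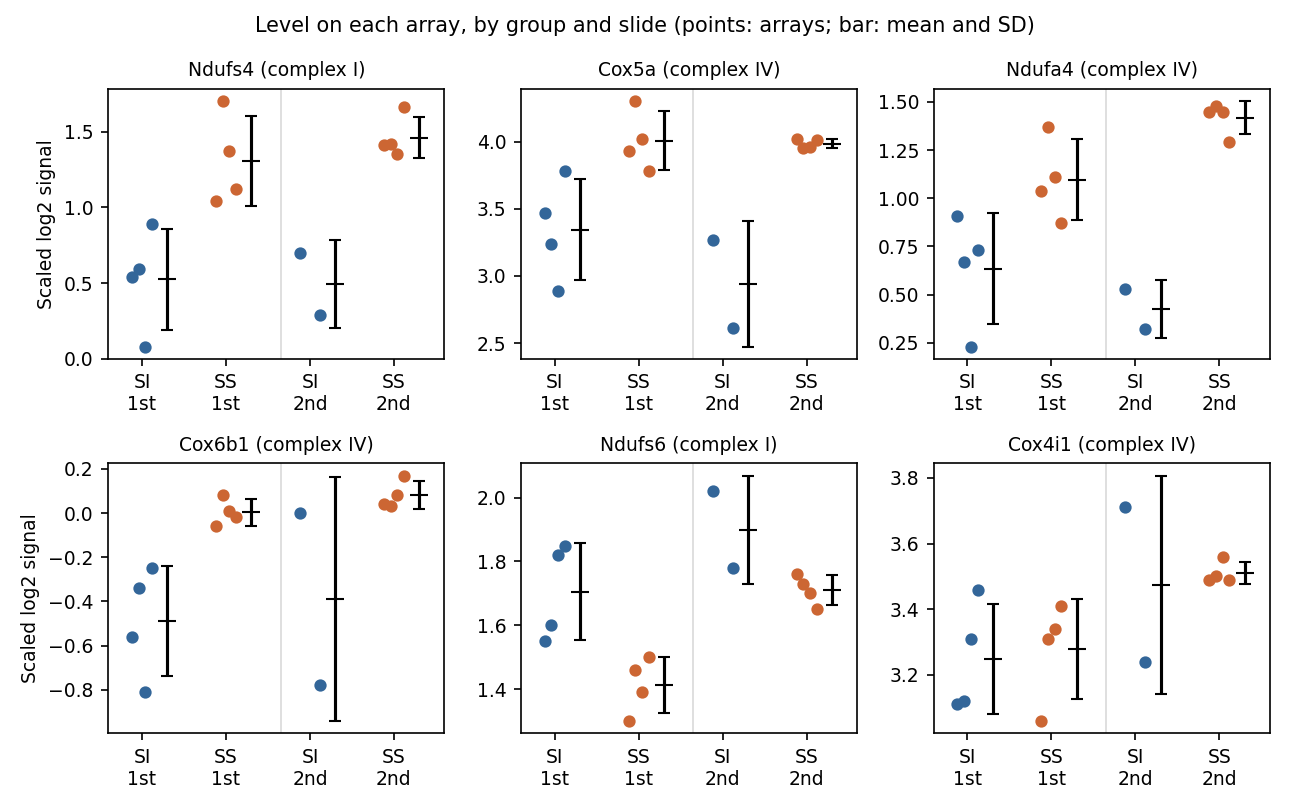
Scaled log2 signal on each array for the 3 called subunits (Ndufs4, Cox5a, Ndufa4), for Cox6b1 and Ndufs6, and for the housekeeping subunit Cox4i1; points are arrays (blue SI, orange SS) by slide, with mean and SD beside them (4 arrays a group, 2 for SI on the second slide), and the vertical axis differs by gene. The SS points of Ndufs4 lie above all SI points of their slide, those of Ndufs6 below, and the groups of Cox4i1 overlap.

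Of the other complex I subunits, 28 lay below 0 over both slides and 6 above it. The higher values were those of small accessory subunits: Ndufa1 (0.43 on the first slide and 0.58 on the second), Ndufa3 (0.36 and 0.47) and Ndufa2 (0.25 and 0.41). Ndufa1 and Ndufa3 did not pass the test over both slides (0.49, SE 0.20, and 0.41, SE 0.18; limma adjusted p = 0.174 and 0.219). Ndufa3, the brightest complex I probe, had levels of 3.64, 2.62, 2.55 and 2.98 in SI mice 4 to 7 and of 3.43, 3.50, 3.00 and 3.30 in SS mice 1, 2, 3 and 01b, which overlap. Without SI mouse 4, the highest of these, the SS levels of Ndufa3 lay above the other 3 SI levels.

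Core subunits of complex I, the conserved catalytic set, mostly lay lower in SS mice on the first slide. Ndufs3 had the lowest difference of the complex there, -0.54 (SE 0.30, limma adjusted p = 0.273), and 0.12 (SE 0.37, limma adjusted p = 0.922) on the second slide. Its levels on the first slide were -0.72, 0.25, 0.70 and 0.68 in SI mice 4 to 7 and -0.62, -0.46, 0.26 and -0.45 in SS mice 1, 2, 3 and 01b. SI mouse 4 lay with the SS mice, and SS mouse 3 with the SI mice. Ndufv1, which binds NADH, differed by -0.49 on the first slide and -0.16 on the second, and Ndufs1 by -0.49 and -0.13. Among all 35 subunits of complex I, not only the core set, Ndufa8 was the lowest on the second slide (-0.43, SE 0.32, limma adjusted p = 0.592) and lay at -0.35 on the first.

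Leaving out SI mouse 4 changed the count of calls on the first slide more than any other array. Without it limma called 22 subunits there, 7 higher and 15 lower in SS mice, against 39.2% of all tested probes in either direction. The 15 lower were 11 subunits of complex I (Ndufa8, Ndufa9, Ndufa12, Ndufb4, Ndufb5, Ndufb10, Ndufs1, Ndufs3, Ndufs7, Ndufs8 and Ndufv1), Sdha of complex II, and Cyc1, Uqcrb and Uqcrfs1 of complex III. The 7 higher were Ndufs4, Ndufa1 and Ndufa3 of complex I and Cox5a, Cox6b2, Cox6c and Ndufa4 of complex IV. No complex V subunit was called without it. Ndufs3 then differed by -0.86 (SE 0.22, limma adjusted p = 0.0164), Ndufv1 by -0.73 (SE 0.20, limma adjusted p = 0.0186) and Ndufs1 by -0.73 (SE 0.20, limma adjusted p = 0.019). The share of subunits called in either direction stayed below the background of that fit (22 of 81 against 39.2% of probes). No background by direction is given for that fit, so the 7 higher and 15 lower are not set against one.

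Over both slides without SI mouse 4, 12 subunits were called, 8 higher and 4 lower (background 16.1% in either direction). The 4 lower were Ndufa8 (-0.55, SE 0.13, limma adjusted p = 0.0137), Ndufs8 (-0.46, SE 0.14, limma adjusted p = 0.0428), Ndufb10 (-0.47, SE 0.15, limma adjusted p = 0.0483) and Sdhb (-0.42, SE 0.13, limma adjusted p = 0.0499). Ndufs4 was hardly moved, at 0.86 (SE 0.17, limma adjusted p = 0.0048). The summed level of the 18 platelet markers on SI mouse 4's array was 501 in units of the scaling point, the highest of the 6 SI arrays, and that of the erythroid markers was 3480, the highest of all 14. Their part in its subunit levels was not tested.

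Complex II is the only complex of the chain encoded wholly in the nucleus, and its 4 subunits also serve the citric acid cycle. All 4 lay below 0 on both slides (2 of 4 did not on the second slide with the all-probe scale), and none was called over both: Sdha, the flavin subunit (-0.42 and -0.11 on the first and second slide), Sdhb, the iron-sulfur subunit (-0.25 and -0.35), and the membrane anchors Sdhc (-0.26 and -0.11) and Sdhd (-0.12 and -0.22). Sdha levels were -0.85, 0.14, 0.46 and 0.16 in SI mice 4 to 7 and -0.60, -0.72, 0.01 and -0.48 in SS mice 1, 2, 3 and 01b. The SS mice lay below SI mice 5, 6 and 7 and above SI mouse 4. Without SI mouse 4 the first slide difference of Sdha was -0.70 (SE 0.20, limma adjusted p = 0.022) in place of -0.42 (SE 0.27, limma adjusted p = 0.332).

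In complex III, 7 of 9 subunits lay below 0 on each slide. Cyc1, the cytochrome c1 that hands electrons to cytochrome c, had the lowest difference on the first slide (-0.42, SE 0.27, limma adjusted p = 0.323) and lay at -0.14 on the second. Uqcrh, the hinge subunit and the brightest probe of the complex, had the lowest on the second slide (-0.35, SE 0.25, limma adjusted p = 0.578). Uqcr11, a small accessory subunit, lay apart at 0.39 on the first slide, 0.54 on the second and 0.45 (SE 0.16, limma adjusted p = 0.108) over both. Its levels were 2.25 and 1.84 in SI mice 27 and 28 and 2.59, 2.61, 2.48 and 2.67 in SS mice 20 to 23, without overlap. On the first slide the lowest SS level of Uqcr11, 2.09, lay below the levels of SI mice 4 and 7, 2.23 and 2.17.

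Complex IV held the other 2 called genes. Cox5a is a nuclear-encoded subunit on the matrix side of the oxidase, where it contacts Cox4. On the first slide its level was 3.47, 3.24, 2.89 and 3.78 in SI mice 4, 5, 6 and 7 and 4.30, 4.02, 3.78 and 3.93 in SS mice 1, 2, 3 and 01b. The second slide gave 3.27 and 2.61 in SI mice 27 and 28 and 4.02, 3.95, 3.96 and 4.01 in SS mice 20, 21, 22 and 23. SI mouse 7 reached the lowest SS level on the first slide, and on the second the groups were apart. The difference was 0.66 (SE 0.23, limma adjusted p = 0.111) on the first slide, 1.04 (SE 0.28, limma adjusted p = 0.0532) on the second and 0.82 (SE 0.18, limma adjusted p = 0.0093) over both, a 1.76-fold higher signal.

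Ndufa4 was first assigned to complex I and is now counted with complex IV, where it is needed for oxidase activity. Its level on the first slide was 0.91, 0.67, 0.23 and 0.73 in SI mice 4, 5, 6 and 7 and 1.37, 1.11, 0.87 and 1.04 in SS mice 1, 2, 3 and 01b. The second slide gave 0.53 and 0.32 in SI mice 27 and 28 and 1.45, 1.48, 1.45 and 1.29 in SS mice 20, 21, 22 and 23. Only SS mouse 3 lay below an SI mouse of its slide, SI mouse 4. The difference was 0.46 (SE 0.19, limma adjusted p = 0.172) on the first slide, 0.99 (SE 0.23, limma adjusted p = 0.0367) on the second and 0.68 (SE 0.16, limma adjusted p = 0.0159) over both, a 1.6-fold higher signal. Its paralogue Ndufa4l2, which replaces it in hypoxic cells, was not well above background on any array. The call of Ndufa4 over both slides was lost without SI mouse 28 (0.59, limma adjusted p = 0.062).

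Relative to the median of the other 15 complex IV genes on the same array, Cox5a was higher in SS mice by 0.47 on the first slide and 0.80 on the second, and Ndufa4 by 0.39 and 0.81. For both genes the SS and SI values overlapped on the first slide and did not on the second. On the same measure Cox6b1 differed by 0.18 on the first slide and -0.39 on the second, and Cox6b2 by 0.17 and 0.26. Their SS and SI values overlapped on both slides. Platelet marker levels were, like those of the 3 called genes, higher in SS mice. The summed platelet marker level ran from 126 to 501 in SI and from 512 to 900 in SS mice on the first slide. On the second it ran from 154 to 197 in SI and from 538 to 667 in SS mice. All 18 platelet markers passed the brightness filter for testing. Their part in the differences of Ndufs4, Cox5a and Ndufa4 was not tested.

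Several complex IV subunits exist as a widely expressed and a tissue-restricted paralogue. Cox4i1, the widely expressed form of the regulatory subunit, did not pass the test, at 0.03 on each slide (SE 0.18 and 0.22). Cox4i2, its lung and hypoxia form, was dim and lay at 0.46 (SE 0.61) and -0.74 (SE 0.74), with the widest spread within groups of any subunit (SD 0.95). Cox6b1 was 0.49 (SE 0.20, limma adjusted p = 0.169) higher on the first slide and 0.47 (SE 0.25, limma adjusted p = 0.388) on the second. Over both slides Cox6b1 differed by 0.48 (SE 0.15, limma adjusted p = 0.0686). Its SS levels, from -0.06 to 0.17, lay above every SI level of their slide, which ran from -0.81 to 0.00. Without SI mouse 27 it was the fourth called gene. Its testis form Cox6b2 lay at 0.57 on the first slide and at 1.12 on the second (0.79 over both, SE 0.29, limma adjusted p = 0.125).

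Cox6b2 had levels of -0.64 and -0.56 in SI mice 27 and 28 and of 0.57, 0.48, 0.48 and 0.54 in SS mice 20 to 23, with no overlap. On the first slide SI mouse 4 was the highest of all for Cox6b2 at 1.31, against -0.10, -0.99 and 0.01 in SI mice 5, 6 and 7 and 0.93, 0.90, 0.22 and 0.46 in SS mice 1, 2, 3 and 01b. Without SI mouse 4 the difference of Cox6b2 over both slides was 1.05 (SE 0.19, limma adjusted p = 0.00258). The muscle forms Cox6a2 (0.38 and -0.21) and Cox7a1 (-0.21 and -0.73) were dim and changed order or size between slides within their errors. Of the widely expressed forms, Cox6a1 lay at 0.19 and 0.26, Cox7a2 at 0.06 and 0.18, Cox8a at 0.05 and 0.14, and Cox7a2l, which joins complexes III and IV, at -0.01 and 0.02. With Cox4i2, Cox6a2, Cox6b2 and Cox7a1 left out, the complex IV median was 0.05 on the first slide and 0.16 on the second.

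Complex V held no called gene in any of the comparisons, and its differences spanned the narrowest range among complexes I, III, IV and V, from -0.28 to 0.24 on the first slide and from -0.39 to 0.21 on the second. The catalytic subunits Atp5a1 and Atp5b lay at -0.08 and -0.26 on the first slide and at -0.01 and -0.26 on the second. Atp5d, of the central stalk, was the lowest on the first slide (-0.28, SE 0.23) and lay at 0.05 on the second. Atp5mpl, a small membrane subunit, was the lowest on the second slide (-0.39, SE 0.25) and lay at -0.15 on the first, and Atp5md, another, was the highest on both (0.24 and 0.21). The 3 genes for the identical mature c subunit of the rotor ring, Atp5g1, Atp5g2 and Atp5g3, lay at -0.18, -0.20 and -0.21 on the first slide and at -0.26, 0.11 and -0.01 on the second. Atp5e, the brightest of the complex, lay at -0.19 and -0.08.

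Without regard to the test, 2 subunits on the first slide had every SS level above every SI level (Ndufs4 and Cox6b1; background 8.40% of probes) and 3 had every SS level below (Ndufs6, Uqcr10 and Atp5e; background 1.17%). With only 2 SI arrays on the second slide, 12 lay above (background 16.6%) and 11 below (background 18.1%). On both slides together Ndufs4 and Cox6b1 lay above (background 5.11%) and Ndufs6 below (background 0.483%). Ndufs6, an accessory subunit of the electron input arm, had levels of 1.55, 1.60, 1.82 and 1.85 in SI mice 4 to 7 and of 1.46, 1.39, 1.50 and 1.30 in SS mice 1, 2, 3 and 01b. Its difference was small, -0.29 (SE 0.16), -0.19 (SE 0.20) and -0.25 (SE 0.12, limma adjusted p = 0.261) on the first slide, the second and over both. Without SI mouse 4, 9 subunits lay above on the first slide (background 21.7%) and 22 below (background 16%), the latter including all 4 subunits of complex II.

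Of the 81 subunits, 17 were above 0 on both slides, 47 below 0 on both and 17 of opposite sign, so 79% had the same sign, against 52.3% of all tested probes. That share depended on the scale: with the 75th percentile of all non-control probes it was 44.4% (47.7% of all probes), and under the other 3 scalings and corrections and the deposited table it ran from 75.3% to 82.7%. It was 76.5% without SI mouse 4 (48% of all probes). Across the 81 genes the differences on the slides correlated at Pearson 0.68 and Spearman 0.53 (0.15 and 0.07 across all probes), and at 0.55 and 0.44 without SI mouse 4, a description over genes that share arrays and are not independent. In the test of the difference between slides, 0 subunits were called by limma (background 0.0458%) and 0 had an unadjusted p under 0.05 (background 12.6%). Among the lowest p were those of Ndufa4 (0.53, SE 0.30) and Ndufs3 (0.66, SE 0.47), second slide minus first.

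**Figure D3:**
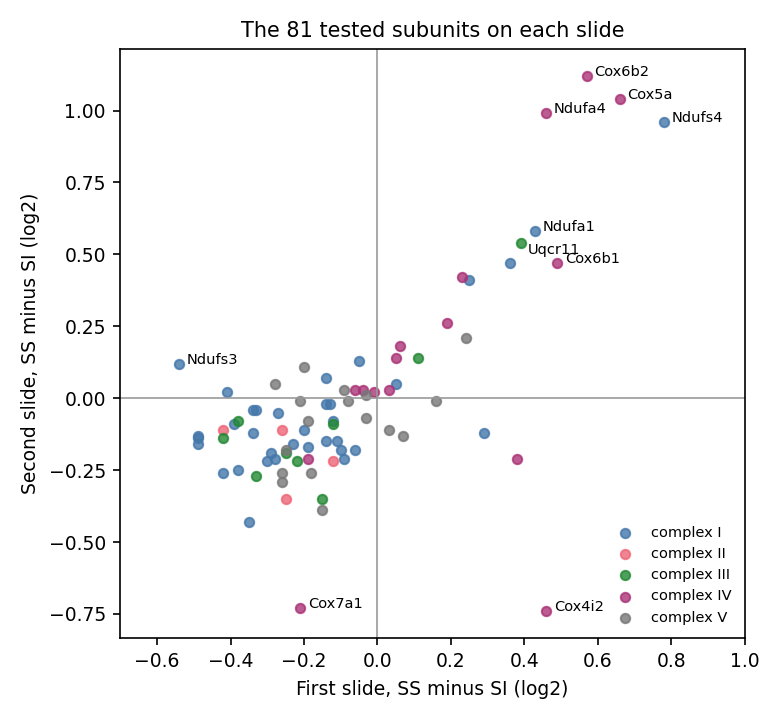
SS minus SI (log2) on the first slide (horizontal) against the second (vertical) for the 81 tested subunits, coloured by complex. Ndufs4, Cox5a, Ndufa4 and Cox6b2 lie toward the upper right, 47 genes lie below 0 on both slides, and Cox4i2 has opposite signs (0.46 and -0.74).

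Subunit levels varied little between arrays of a group. The median within-group SD over the 81 genes was 0.24, with quartiles of 0.18 and 0.30, and the SD was lowest for Ndufa13 (0.10). Over all tested probes the median was 0.48. The 2 sets differ in brightness: all 81 genes were well above background on every array, while a probe could be tested with fewer such arrays. No set of probes matched for brightness was compared, so the part of brightness in the lower spread was not tested. Between slides the subunits lay higher on the second, by a median of 0.23 in SI and 0.28 in SS mice (67 and 73 of 81 genes above 0), against -0.08 and -0.10 over all probes. That contrast carries the slide, the sex label and any handling with it, and no test was made. For 22 genes with other tested probes, the 28 other probes differed from the brightest by a median of 0.05 in SS minus SI over both slides, with 4 of opposite sign. Ndufs4, Cox5a and Ndufa4 had no other tested probe, so each rests on a single probe.

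The other gene lists held from 0 to 2 called genes each over both slides, where limma called 7.98% of all tested probes. The share called was 22.2% of carriers and porins and 11.8% of biogenesis regulators, and from 0% to 5.41% in the other 5 lists. Of 37 tested assembly factors 2 were called, both higher: Coa5, a complex IV assembly factor (1.33, SE 0.23, limma adjusted p = 0.00474), and Sdhaf2, which attaches the flavin to Sdha (0.91, SE 0.15, limma adjusted p = 0.00474). The median of the assembly factors was -0.19. Coa5 levels were -1.71 and -1.68 in SI mice 27 and 28 and -0.42, -0.38, -0.17 and 0.02 in SS mice 20 to 23, and 0.10, -0.48, -1.28 and -0.12 in SI mice 4 to 7 against 1.38, 0.90, 0.24 and 0.69 in SS mice 1, 2, 3 and 01b. The groups did not overlap on either slide.

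Of 9 tested carriers and porins, the porins of the outer membrane Vdac3 (0.91, SE 0.15, limma adjusted p = 0.00474) and Vdac1 (0.93, SE 0.18, limma adjusted p = 0.00552) were called higher, with a list median of -0.06. Vdac3 levels ran from 1.42 to 2.15 in SI and from 2.54 to 3.02 in SS mice on the first slide, without overlap. Of 17 regulators of mitochondrial biogenesis, Prkaa2, a catalytic subunit of the energy sensor AMPK (1.74, SE 0.26, limma adjusted p = 0.00474), and Sirt3, the main mitochondrial deacetylase (1.17, SE 0.22, limma adjusted p = 0.00506), were called higher, with a median of -0.19. Prkaa2 was dim, at -5.61 to -3.67 in SI and -3.08 to -2.57 in SS mice on the first slide. The coactivators Ppargc1a and Ppargc1b did not reach the brightness needed for testing.

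Of 22 tested genes of the citric acid cycle and pyruvate dehydrogenase, Pdk1, a kinase that inhibits pyruvate dehydrogenase, was called higher (0.70, SE 0.17, limma adjusted p = 0.0177), with a list median of -0.24. Of 76 mitochondrial ribosomal proteins 1 was called, Mrpl2, lower (-0.49, SE 0.12, limma adjusted p = 0.0192), with a median of -0.22. None of 18 mobile carriers and other ubiquinone reductases was called over both slides (median -0.29). The lowest p among these was that of Sqor, which oxidises sulfide (-0.77, SE 0.24, limma adjusted p = 0.0737), and it was called lower on the second slide (-1.46, SE 0.31, limma adjusted p = 0.0287). None of 75 cytosolic ribosomal proteins was called (median -0.23).

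Without SI mouse 4, limma called 39.2% of all probes on the first slide in either direction. It called 37 of 76 mitochondrial ribosomal proteins lower and 1 higher there (median -0.54). The counts were 15 lower and 2 higher of 37 assembly factors (median -0.50), 11 lower and 0 higher of 22 citric acid cycle genes (median -0.50), 10 lower and 2 higher of 18 mobile carriers and ubiquinone reductases (median -0.60), and 8 lower and 2 higher of 17 biogenesis regulators (median -0.55). Of 75 cytosolic ribosomal proteins 10 were called lower and 0 higher (median -0.48). The carriers and porins went the other way, with a median of 0.35 in place of -0.10, 2 called higher and 1 lower of 9. On the second slide, where that array does not enter the difference, the list medians ran from -0.31 for carriers and porins to 0.15 for biogenesis regulators.

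**Figure D4:**
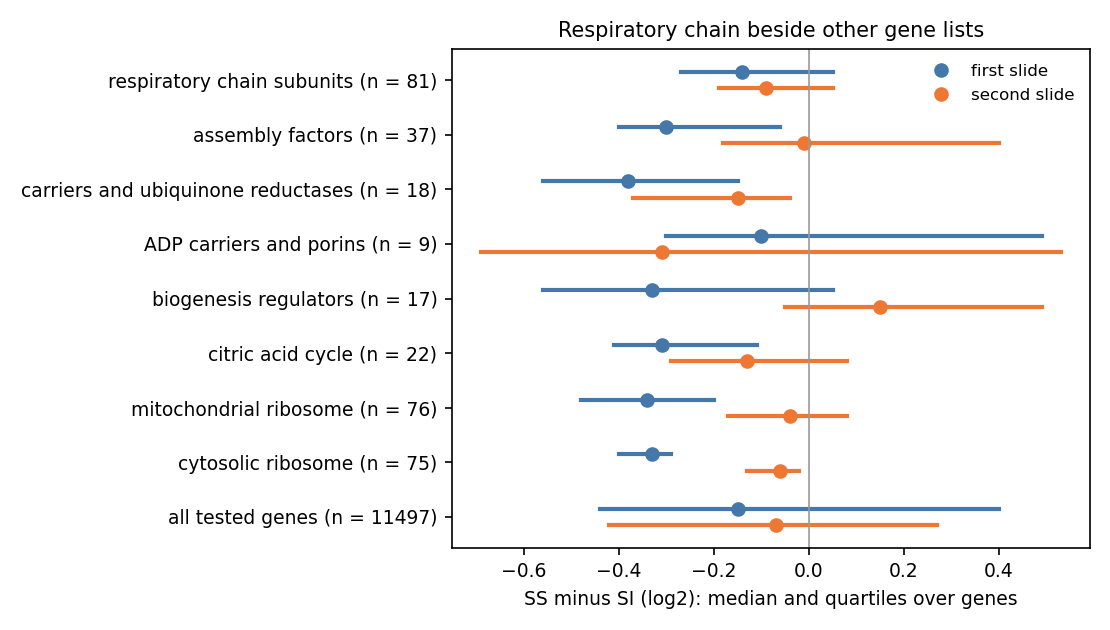
Median (dot) and quartiles (bar) over genes of SS minus SI (log2) for the respiratory chain subunits, 7 other gene lists and all tested genes with a symbol, on the first slide (blue) and the second (orange). The subunit medians (-0.14 and -0.09) lie close to those of all tested genes (-0.15 and -0.07), and the mitochondrial and cytosolic ribosomal lists lie lower on the first slide (-0.34 and -0.33) than on the second (-0.04 and -0.06).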

How the data were processed

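Total RNA of 14 mice was measured on Agilent one-colour (Cy3) arrays. The authors' deposited scanner files hold the processed signal intensity of each spot, and per the file headers it came from version 10.7.3.1 of Feature Extraction; the submitters' processing notes give 9.1. The authors' deposited value table holds log2 values whose normalization and centring are not given in the sources used here; column medians ran from 7.22 to 7.74, and it was used as an alternative.

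Spots of a probe were averaged without flagged outliers, log2 was taken, and each array was scaled to the 75th percentile of its signal over the 14522 probes well above background on all arrays. A probe was tested (24033 in all) where 6 or more of the 14 arrays had it well above background; 34.8% to 47.7% of an array's spots were, and the number of arrays limits the precision. Probes were named through RefSeq accessions (26425 of 31063 matched), so older symbols such as Atp5g1 appear, and 1 probe a gene, the brightest, was used.

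Limma 3.58.1 (R 4.3.3) fitted the 4 groups of stress and slide with a shared spread, and a second fit took all arrays with slide as a term; tests were two-sided with Benjamini-Hochberg adjustment at 0.05. The fits were tested on simulated data. P-values measure the spread between mice, each on 1 array. On each slide SI arrays sat in other columns than SS arrays, so column and stress cannot be told apart.

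Named genes were every called subunit, the highest, lowest and brightest of each complex, the lowest p where none was called, complex II, the paralogues of complexes IV and V, and in other lists the called genes or the lowest p; Ndufa2, Ndufs1, Ndufv1, Ndufs6, Atp5a1, Atp5b, the genes called only without SI mouse 4, and those whose groups did not overlap were added after their values were seen. A gene that this rule names is not reported here. Members and lists were chosen with earlier results of these data known. Alternatives were other scalings, the normexp background correction (offset 50, on median signals; mean signals were not used here), the deposited table, other filters, array weights, the slide row as a block, another probe of a gene, each slide alone and each array left out.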

Additional observations from a re-analysis of the deposited data

Results flagged for a closer look

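Within groups of 4 arrays, 9 of 111 sets of values examined (the named subunits and the complex medians) had 1 array set apart by a gap above Dixon's 95% critical value; chance alone gives about 1 in 20. Of these, 3 were SI mouse 4 of the first slide: Uqcrh at 3.80 (others 2.96 to 3.06), Atp5mpl at 1.84 (others 1.03 to 1.13) and Sdhd at -0.50 (others 0.30 to 0.42). SS mouse 3 of the first slide stood apart for Atp5d at 0.25 (others -0.40 to -0.31), for Atp5g3 at 1.22 (others 1.00) and for Sdhd at 0.15 (others -0.05 to -0.02). SS mouse 1 stood apart for Atp5md at 1.34 (others 1.09 to 1.13). On the second slide SS mouse 22 stood apart for Sdha at -0.06 (others -0.42 to -0.38) and for the complex II median at 0.23 (others -0.08 to -0.04).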

How the results depend on the processing

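Ndufs4, Cox5a and Ndufa4 stayed higher in SS mice over both slides under all 23 alternatives that bear on them (none has another tested probe), and were called in 22, 20 and 19. Scaling to the 75th percentile of all non-control probes called 0 subunits over both slides, against 5.7% of all probes (Ndufs4 0.81, limma adjusted p = 0.0525, Cox5a 0.77, limma adjusted p = 0.0817, and Ndufa4 0.63, limma adjusted p = 0.119). That scale moved the median difference to -0.31 on the first slide, 0.07 on the second and 0.42 for second minus first. The deposited table called 1 over both slides (Ndufs4, against 6.75% of its probes) and 0 on the second slide (against 2.02%). With no filter on dim probes the counts were 1 and 0. Array weights, which gave SI mouse 4 a weight of 0.11 and SS mouse 20 one of 5.07, called 42 subunits on the first slide, 2 on the second, 37 over both and 1 for the difference between slides. For array weights, other filters, the slide row and each slide alone, no share of all probes called is given. Counts from those fits are therefore not set against a background. On the second slide the single call, Ndufa4, became 0 with the slide row as a block (limma adjusted p = 0.0714) and with the median as scale (limma adjusted p = 0.0503), 3 with the filter of all 14 arrays and 4 with each slide fitted alone. Leaving out 1 array gave 0 to 22 calls on the first slide, 0 to 4 on the second, and 2 to 12 over both. The highest of each came without SI mouse 4, where 39.2%, 7.98% and 16.1% of all probes were called. The difference between slides had 0 calls in every case, and without SI mouse 28 the count over both slides was 2. The second slide gave 0 without SI mouse 27, 28 or 5, SS mouse 2 or 01b, or any of SS mice 20 to 23, 3 without SI mouse 6 and 2 without SI mouse 7. The median difference ran from -0.25 to -0.07 on the first slide, from -0.18 to -0.07 over both, and from -0.20 to 0.08 on the second, with 0.08 without SI mouse 27, and that of second minus first from -0.05 to 0.25. The median of all probes on the first slide was 0.09, and -0.09 with the all-probe scale. The cause of these shifts was not tested. No paired analysis was possible because the groups share no mouse numbers. With 2 SI arrays on the second slide, its SE was larger than that of the first.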
